A study of Mus musculus with 13 samples.

Results

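The type I interferon response genes described here are 37 genes that cells are known to switch on, or to hold ready, in the antiviral programme driven by interferon. They were chosen by name: each is a row of the deposited table, which lists 36287 genes in 13 libraries. All 37 passed the filter on low counts that left 22065 genes for testing. The choice of names was made with earlier results of these data known. Bulk mRNA, captured by its poly(A) tail, was sequenced from the hippocampus of 5xFAD mice, a transgenic model that expresses mutant human amyloid precursor protein and presenilin. Mice had been given saline (4 libraries, numbered 18, 19, 32 and 38), Aducanumab, an antibody that binds amyloid beta aggregates (4 libraries, 24, 50, 56 and 58), or ACLP-NT, named here only by its code (5 libraries, 17, 27, 49, 53 and 55). Every mouse carried the 5xFAD transgenes, no wild-type group is among the libraries, and saline-treated mice are the background for each value. Nothing on age, dose, route or duration of treatment is stated in the labels.

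Type I interferons are secreted proteins that bind the receptor pair IFNAR1 and IFNAR2 and act through the kinases JAK1 and TYK2. These phosphorylate STAT2, which joins IRF9 in a complex that binds a DNA element called the interferon-stimulated response element and turns on a wide set of antiviral genes. In brain tissue around amyloid plaques, a state of microglia marked by such genes is known, and microglia, the resident macrophages of the brain, are one of several cell types that can carry the response.

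The core of this element is visible in the start regions of some of these genes and was not found in 16 of those matched. Stretches are printed below from genes that hold it, so they do not stand for all 37. RefSeq promoter sequence (GRCm38.p6) was matched by symbol for 28 of the 37 genes. Rtp4, Ifi204, Oas2, Parp14, Mx1, Parp9, Ifi27l2a, Zbp1 and Usp18 were not matched. In the 250 bases before the start, the core of the element, GAAA and GAAA spaced by 2 bases of any kind, or TTTC and TTTC so spaced on the other strand, was found in 12 of the 28 genes (42.9%) against 3.46% of 27025 genes. A palindromic element, TTC and GAA spaced by 3 bases of any kind and known from genes that answer interferon gamma, was found in 5 (17.9%) against 8.13% of genes, and 2 genes, Oas1a and Bst2, held both. The first core was present in Ifit1, Ifit3, Ifit3b, Isg15, Stat2, Oas1a, Bst2, Rsad2, Cxcl10, Trim30a, Gbp2 and Gbp3. The stretches below run 5′ to 3′ on the strand of the gene, with matches to the core in capitals.
Isg15 (chr4:156200855-156200916, - strand): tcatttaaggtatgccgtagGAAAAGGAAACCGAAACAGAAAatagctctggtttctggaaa
Ifit1 (chr19:34640765-34640833, + strand): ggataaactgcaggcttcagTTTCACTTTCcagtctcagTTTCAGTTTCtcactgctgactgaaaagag
Ifit3 (chr19:34583353-34583436, + strand): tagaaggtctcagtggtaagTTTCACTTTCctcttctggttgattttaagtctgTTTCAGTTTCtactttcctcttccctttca
Ifit3b (chr19:34607749-34607832, + strand): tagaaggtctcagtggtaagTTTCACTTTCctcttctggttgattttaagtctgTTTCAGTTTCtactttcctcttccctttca
Oas1a (chr5:120907526-120907565, - strand): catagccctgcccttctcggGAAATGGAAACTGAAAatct
Bst2 (chr8:71537567-71537622, - strand): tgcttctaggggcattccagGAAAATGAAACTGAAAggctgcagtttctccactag
Stat2 (chr10:128270256-128270305, + strand): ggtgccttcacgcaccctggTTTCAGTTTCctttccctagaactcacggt
Cxcl10 (chr5:92349073-92349122, - strand): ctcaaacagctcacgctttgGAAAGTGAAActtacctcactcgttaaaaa

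In Isg15 the capitals hold 3 overlapping matches between 78 and 66 bases before the start. The stretches of Ifit3 and Ifit3b are the same letters, and their 2 matches lie 156 and 122 bases before the start of Ifit3 and 188 and 154 bases before that of Ifit3b. A match is a description of letters, not a measured binding site.

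Levels per gene length, in FPKM averaged over the 13 libraries, ran from 24.1 for Lgals3bp, a secreted glycoprotein, down to 0.291 for Ifi44. The next highest FPKM were those of Ifitm3 (13.7), which blocks virus entry at membranes, Bst2 (11.1), which tethers budding virus, Ifit3 (9.99), which binds foreign RNA with its relatives, and Stat2 (6.79). There were 28 genes with a mean FPKM of at least 1 and 9 below it. The lowest count of any of the genes in a library was 19 reads, for Ifi27l2a, and 3 genes had a mean count under 100. Depth was 53642019 to 69734713 total counts per library. Libraries of a group differed by far more than counting error, with a lowest chi-square of 13.1 per degree of freedom, and each was counted as 1 sample. The labels give each library a number of its own and do not say that each is a separate animal, so the p-values measure only the spread between these samples, which may be technical.

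The score of a library is the mean over the 37 genes of its log2 CPM (counts scaled to the library total) after centring each gene on its mean over the 13 libraries. In saline the score was -0.15 in library 18, 0.30 in 19, 0.21 in 32 and 0.47 in 38. Aducanumab libraries 24, 50, 56 and 58 scored 0.048, -0.38, -0.13 and 0.29. ACLP-NT libraries 17, 27, 49, 53 and 55 scored 0.23, -0.74, 0.47, -0.43 and -0.21. ACLP-NT thus held both the highest library, 49, just above saline 38, and the lowest, 27, 1.21 apart on the log2 scale or 2.31-fold, and the 3 groups overlapped. Group means were 0.21 ± 0.26 (SD, n = 4), -0.041 ± 0.28 (SD, n = 4) and -0.13 ± 0.49 (SD, n = 5) in saline, Aducanumab and ACLP-NT. Differences between groups held 16.1% of the variance of the score. Over the single genes the median share was 14.2%, beside 13.1% for all genes tested.

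**Figure D1:**
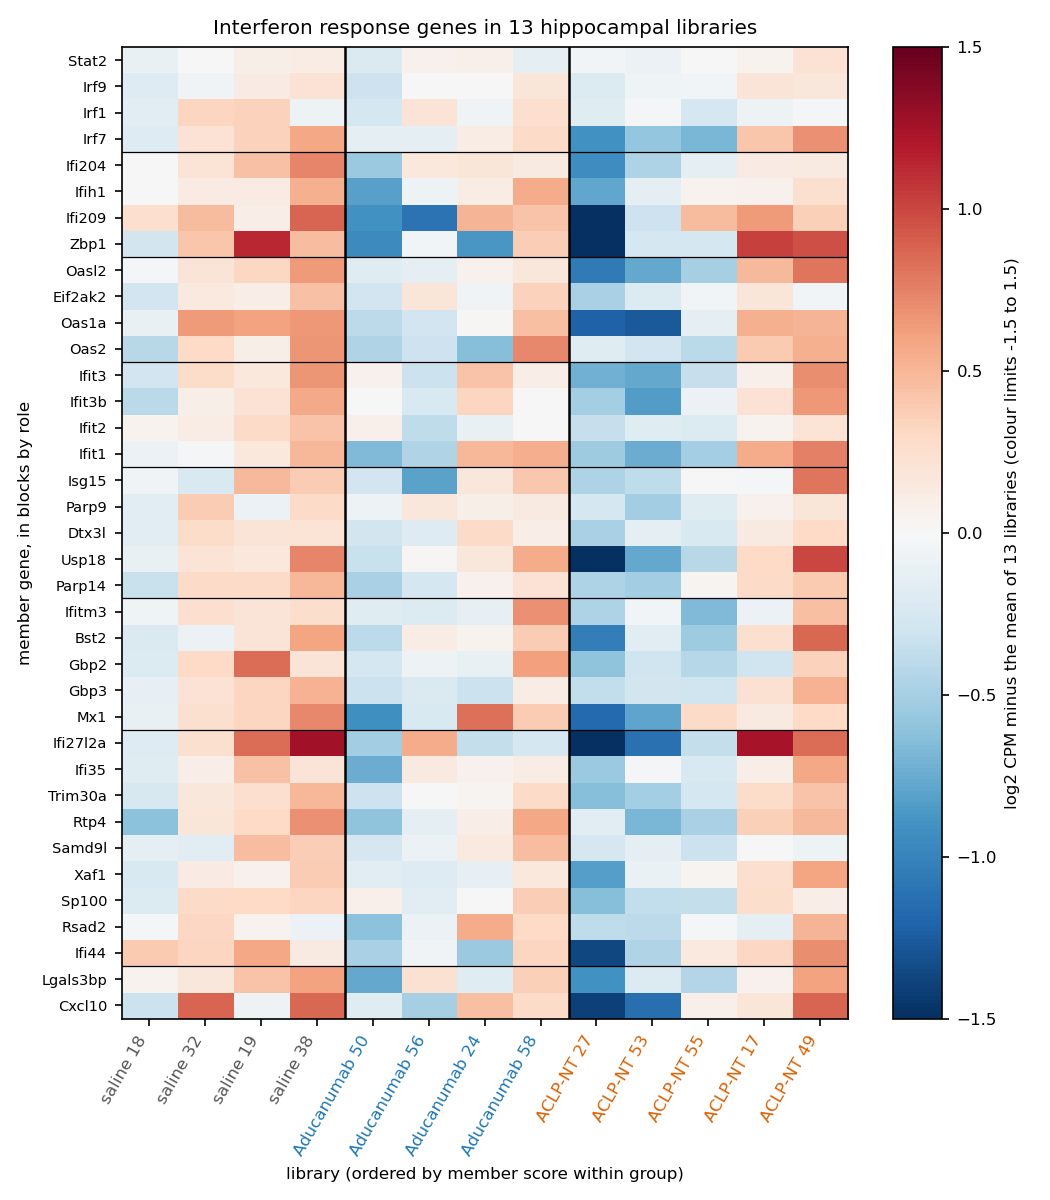
Log2 CPM of the 37 genes (rows, in blocks by role) in the 13 libraries (columns, ordered by score within each group), each gene centred on its mean over all libraries and coloured from blue (low) to red (high), with colour limits at -1.5 and 1.5. Whole columns are blue or red: ACLP-NT 27 and 53 and Aducanumab 50 are low, and ACLP-NT 49 and saline 38 are high.

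Single genes followed the same few libraries. ACLP-NT 49 or saline 38 was the highest library for 25 of the 37 genes, and ACLP-NT 27, ACLP-NT 53 or Aducanumab 50 was the lowest for 32. Within ACLP-NT, library 49 lay above library 27 in 37 of 37 genes, by a median of 2.09-fold, while 49.98% of all genes tested were higher in 49. In saline, 35 genes were higher in library 38 than in 18, by a median of 1.53-fold, against 49.9% of all genes. In Aducanumab, 35 were higher in library 58 than in 50, by a median of 1.61-fold, against 51.1% of all genes. The libraries named first are the ends of a score built from these same 37 genes, and the pairs are its extremes in each group. All these counts thus describe the libraries and test nothing. The counts of highest and lowest libraries have no share of all genes beside them.

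The SD of log2 CPM between libraries of a group had a median of 0.42 over the 37 genes and 0.21 over all genes tested, and 34 of the 37 lay above the latter. Of all genes tested, 30.0% had an SD above the median of the 37. It was lowest for Stat2 (0.12) and highest for Ifi27l2a (0.95), of the ISG12 family. Counting error was smaller in all 37, by a median factor of 5.42 and at least 3.35. The highest library exceeded the lowest by 1.34-fold for Stat2, by 10.7-fold for Ifi27l2a and by a median of 2.67-fold. By role, the median SD was lowest among the signal transducers and transcription factors (0.20) and highest among the nucleic acid sensors and the 2 secreted products (0.60 each).

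**Figure D2:**
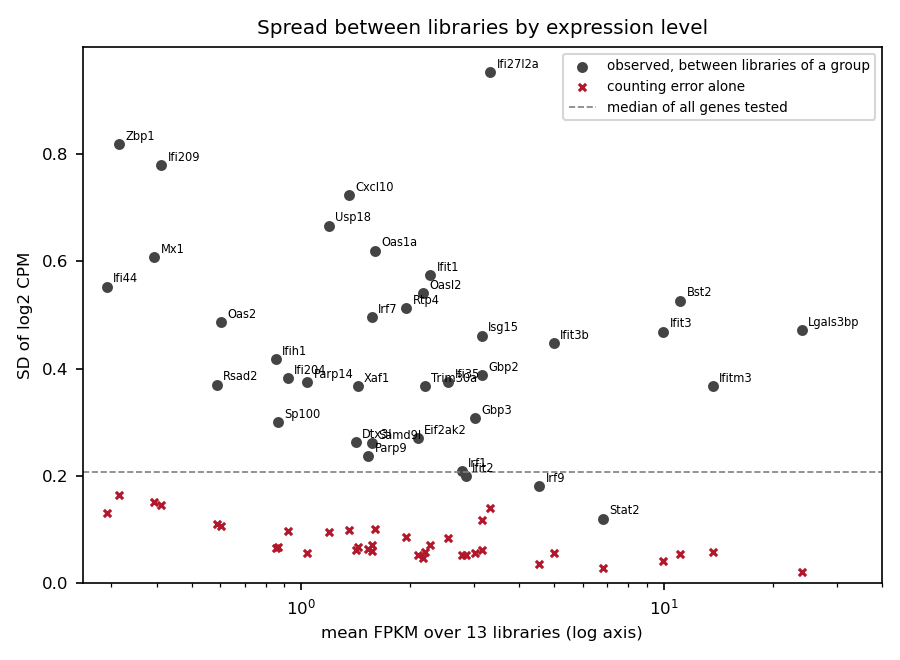
SD of log2 CPM between libraries of a group (points, named) and the SD that counting error alone gives (crosses), against mean FPKM over the 13 libraries on a log axis, for the 37 genes, with the median SD of all genes tested as a dashed line. All points stand above their crosses, and Stat2, Irf9 and Ifit2 lie below the line at 0.21.

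Values per library below are TMM-scaled CPM, in the order of the library numbers given above. Log2 fold changes come from the edgeR quasi-likelihood fit, with adjusted p-values for ACLP-NT against saline, and none was below the threshold of 0.05. In both comparisons that include Aducanumab the adjusted p was at least 0.9997 for all 37 genes and is not repeated. Stat2, which acts in the complex with IRF9, was at 40, 45.9, 43.3 and 46.6 CPM in saline, 45.6, 37.2, 45.2 and 39.5 CPM in Aducanumab and 44.7, 42, 50.1, 40.8 and 43.1 CPM in ACLP-NT. It was the steadiest of the 37 genes, and Aducanumab 50 was lowest and ACLP-NT 49 highest. Stat2 averaged 44 ± 3.0 CPM in saline (SD, n = 4), 41.9 ± 4.18 CPM in Aducanumab (SD, n = 4) and 44.1 ± 3.62 CPM in ACLP-NT (SD, n = 5). The Stat2 log2 fold change was 0.0052 (SE 0.076, adjusted p = 0.998) in ACLP-NT against saline, -0.071 (SE 0.080) in Aducanumab against saline and 0.076 (SE 0.076) in ACLP-NT against Aducanumab. Irf9, the DNA-binding subunit of that complex, was at 23, 28.5, 25.3 and 30.4 CPM in saline, 26.4, 21.1, 26.1 and 29.7 CPM in Aducanumab and 29.9, 22.8, 29.4, 25.1 and 25.5 CPM in ACLP-NT. Aducanumab 50 was again lowest and saline 38 highest, and the groups overlapped. Irf9 averaged 26.8 ± 3.29 CPM in saline (SD, n = 4), 25.8 ± 3.54 CPM in Aducanumab (SD, n = 4) and 26.5 ± 3.03 CPM in ACLP-NT (SD, n = 5). The Irf9 log2 fold change was -0.017 (SE 0.11, adjusted p = 0.992) in ACLP-NT against saline, -0.054 (SE 0.12) in Aducanumab against saline and 0.038 (SE 0.11) in ACLP-NT against Aducanumab. Irf7, which amplifies interferon production, was at 5.33, 7.74, 7.12 and 9.15 CPM in saline, 6.58, 5.58, 5.58 and 7.45 CPM in Aducanumab and 8.18, 3.26, 9.82, 4.09 and 3.79 CPM in ACLP-NT. ACLP-NT 27, 53 and 55 lay below every library of the other groups, while ACLP-NT 49 lay above all of them. Irf7 averaged 7.33 ± 1.59 CPM in saline (SD, n = 4), 6.29 ± 0.90 CPM in Aducanumab (SD, n = 4) and 5.83 ± 2.97 CPM in ACLP-NT (SD, n = 5). The Irf7 log2 fold change was -0.33 (SE 0.29, adjusted p = 0.948) in ACLP-NT against saline, -0.22 (SE 0.31) in Aducanumab against saline and -0.11 (SE 0.29) in ACLP-NT against Aducanumab. Irf1, a transcription factor that also answers interferon gamma, was at 10.5, 15, 14.8 and 11.2 CPM in saline, 11.4, 9.82, 13.6 and 14.1 CPM in Aducanumab and 11.2, 10.4, 11.7, 11.6 and 9.87 CPM in ACLP-NT. All ACLP-NT libraries lay in a narrow band below saline 19 and 32, and Aducanumab 50 was lowest of all. Irf1 averaged 12.9 ± 2.35 CPM in saline (SD, n = 4), 12.2 ± 2.01 CPM in Aducanumab (SD, n = 4) and 11 ± 0.82 CPM in ACLP-NT (SD, n = 5). The Irf1 log2 fold change was -0.23 (SE 0.13, adjusted p = 0.874) in ACLP-NT against saline, -0.076 (SE 0.14) in Aducanumab against saline and -0.16 (SE 0.13) in ACLP-NT against Aducanumab. Irf9 overlaps Rnf31 by 123 bases on the same strand in GENCODE vM21 and Irf7 overlaps Phrf1 by 45 bases on the opposite strand, and use of strand in the counting was not stated in the sources.

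Ifi204, of the family of DNA sensors with a pyrin domain, was at 3.39, 4.64, 3.93 and 5.65 CPM in saline, 3.87, 2.31, 3.81 and 3.74 CPM in Aducanumab and 3.72, 1.79, 3.74, 2.48 and 3.08 CPM in ACLP-NT. ACLP-NT 27, 53 and 55 and Aducanumab 50 lay below every saline library, and the other treated libraries lay above saline 18 alone. Ifi204 averaged 4.4 ± 0.975 CPM in saline (SD, n = 4), 3.43 ± 0.748 CPM in Aducanumab (SD, n = 4) and 2.96 ± 0.836 CPM in ACLP-NT (SD, n = 5). The Ifi204 log2 fold change was -0.57 (SE 0.23, adjusted p = 0.789) in ACLP-NT against saline, -0.36 (SE 0.24) in Aducanumab against saline and -0.21 (SE 0.23) in ACLP-NT against Aducanumab. Zbp1, a sensor of left-handed nucleic acid that can trigger cell death, was at 0.874, 2.31, 1.41 and 1.46 CPM in saline, 0.576, 0.544, 1.03 and 1.37 CPM in Aducanumab and 2.15, 0.328, 2.07, 0.878 and 0.878 CPM in ACLP-NT. Saline 19 was highest, with ACLP-NT 17 and 49 next, and ACLP-NT 27 was lowest. Every Aducanumab library lay below saline 19, 32 and 38. Zbp1 averaged 1.51 ± 0.592 CPM in saline (SD, n = 4), 0.881 ± 0.396 CPM in Aducanumab (SD, n = 4) and 1.26 ± 0.807 CPM in ACLP-NT (SD, n = 5). The Zbp1 log2 fold change was -0.26 (SE 0.47, adjusted p = 0.977) in ACLP-NT against saline, -0.78 (SE 0.51) in Aducanumab against saline and 0.52 (SE 0.48) in ACLP-NT against Aducanumab. Ifih1, which encodes the RNA sensor MDA5, ranged from 4.14 CPM in Aducanumab 50 to 10.7 CPM in Aducanumab 58, with a log2 fold change against saline of -0.28 (SE 0.24, adjusted p = 0.944) in ACLP-NT and -0.18 (SE 0.25) in Aducanumab. Ifi209, a relative of Ifi204, ranged from 0.41 CPM in ACLP-NT 27 to 2.58 CPM in saline 38, with values of -0.36 (SE 0.43, adjusted p = 0.96) in ACLP-NT and -0.55 (SE 0.46) in Aducanumab against saline.

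Oasl2, of the oligoadenylate synthetase family that senses double-stranded RNA, was at 13.9, 17.5, 16.1 and 22 CPM in saline, 14.7, 12.4, 12.7 and 15.9 CPM in Aducanumab and 19.7, 6.75, 24.6, 8.29 and 9.96 CPM in ACLP-NT. ACLP-NT 27, 53 and 55 lay below every library of the other groups, ACLP-NT 49 above all, and ACLP-NT 17 above all but saline 38. Oasl2 averaged 17.4 ± 3.4 CPM in saline (SD, n = 4), 13.9 ± 1.65 CPM in Aducanumab (SD, n = 4) and 13.9 ± 7.86 CPM in ACLP-NT (SD, n = 5). The Oasl2 log2 fold change was -0.32 (SE 0.31, adjusted p = 0.948) in ACLP-NT against saline, -0.32 (SE 0.33) in Aducanumab against saline and -0.0024 (SE 0.31) in ACLP-NT against Aducanumab. Oas1a, an oligoadenylate synthetase, ranged from 1.25 CPM in ACLP-NT 53 to 4.7 CPM in saline 38, with a log2 fold change against saline of -0.59 (SE 0.35, adjusted p = 0.89) in ACLP-NT and -0.49 (SE 0.38) in Aducanumab. For Oas2, a second such enzyme, the range was 1.78 CPM in Aducanumab 24 to 4.57 CPM in Aducanumab 58 and the fold changes were -0.15 (SE 0.30, adjusted p = 0.977) in ACLP-NT and -0.28 (SE 0.32) in Aducanumab. Eif2ak2, the kinase PKR that halts translation, spanned 8.18 CPM in ACLP-NT 27 to 15.6 CPM in saline 38, with fold changes of -0.22 (SE 0.16, adjusted p = 0.926) in ACLP-NT and -0.057 (SE 0.17) in Aducanumab. The longest open reading frames of Oas1a and Oas1g share 96.7% of their letters in GENCODE vM21, and the assignment of reads shared by near copies was not stated in the sources.

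Ifit2, of the IFIT family that binds viral RNA and blocks its translation, was at 12.4, 14.5, 12.9 and 16 CPM in saline, 11, 12.6, 9.15 and 12 CPM in Aducanumab and 12.4, 9.4, 13.7, 10.5 and 10.3 CPM in ACLP-NT. Among treated libraries Aducanumab 50 and ACLP-NT 49 lay within the saline range, ACLP-NT 17 equalled saline 18 to 3 digits, and the other 6 lay below saline. Ifit2 averaged 13.9 ± 1.63 CPM in saline (SD, n = 4), 11.2 ± 1.5 CPM in Aducanumab (SD, n = 4) and 11.3 ± 1.76 CPM in ACLP-NT (SD, n = 5). The Ifit2 log2 fold change was -0.30 (SE 0.13, adjusted p = 0.796) in ACLP-NT against saline, -0.32 (SE 0.13) in Aducanumab against saline and 0.011 (SE 0.13) in ACLP-NT against Aducanumab. Ifit3 was at 14.7, 19.9, 21.7 and 28.3 CPM in saline, 24, 18.7, 14.3 and 19.1 CPM in Aducanumab and 18.8, 10.9, 28.9, 10.5 and 14.1 CPM in ACLP-NT. Both ends of its range were ACLP-NT libraries, 49 at the top and 53 at the bottom, and ACLP-NT 27, 53 and 55 and Aducanumab 56 lay below every saline library. Ifit3 averaged 21.2 ± 5.61 CPM in saline (SD, n = 4), 19 ± 3.96 CPM in Aducanumab (SD, n = 4) and 16.6 ± 7.62 CPM in ACLP-NT (SD, n = 5). The Ifit3 log2 fold change was -0.35 (SE 0.27, adjusted p = 0.934) in ACLP-NT against saline, -0.15 (SE 0.29) in Aducanumab against saline and -0.19 (SE 0.28) in ACLP-NT against Aducanumab. Ifit3b, its near copy, was at 7.83, 12, 11 and 15.4 CPM in saline, 12.9, 10.4, 8.84 and 10.3 CPM in Aducanumab and 12, 7.26, 16.3, 5.77 and 9.75 CPM in ACLP-NT. ACLP-NT 27 and 53 lay below every library of the other groups and ACLP-NT 49 above them. Ifit3b averaged 11.6 ± 3.12 CPM in saline (SD, n = 4), 10.6 ± 1.68 CPM in Aducanumab (SD, n = 4) and 10.2 ± 4.14 CPM in ACLP-NT (SD, n = 5). The Ifit3b log2 fold change was -0.18 (SE 0.26, adjusted p = 0.969) in ACLP-NT against saline, -0.13 (SE 0.27) in Aducanumab against saline and -0.053 (SE 0.26) in ACLP-NT against Aducanumab. The longest open reading frames of Ifit3 and Ifit3b share 99.1% of their letters, so their split of reads is uncertain. Ifit1 ranged from 3.64 CPM in ACLP-NT 53 to 10.3 CPM in ACLP-NT 49, with a log2 fold change of -0.11 (SE 0.34, adjusted p = 0.984) in ACLP-NT and -0.074 (SE 0.35) in Aducanumab against saline.

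Isg15, a ubiquitin-like protein that is attached to other proteins in the response, was at 2.22, 3.21, 1.96 and 2.99 CPM in saline, 2.58, 1.88, 1.32 and 3.03 CPM in Aducanumab and 2.25, 1.67, 4.0, 1.76 and 2.29 CPM in ACLP-NT. ACLP-NT 49 stood above all other libraries, Aducanumab 56 was lowest, and the groups overlapped. Isg15 averaged 2.59 ± 0.599 CPM in saline (SD, n = 4), 2.2 ± 0.757 CPM in Aducanumab (SD, n = 4) and 2.39 ± 0.94 CPM in ACLP-NT (SD, n = 5). The Isg15 log2 fold change was -0.11 (SE 0.29, adjusted p = 0.98) in ACLP-NT against saline, -0.24 (SE 0.30) in Aducanumab against saline and 0.12 (SE 0.29) in ACLP-NT against Aducanumab. Usp18, which removes ISG15 and damps receptor signalling, was at 3.06, 3.69, 3.8 and 5.48 CPM in saline, 3.73, 2.63, 3.35 and 4.87 CPM in Aducanumab and 4.06, 1.15, 6.6, 1.94 and 2.48 CPM in ACLP-NT. ACLP-NT 27, 53 and 55 lay below every library of the other groups and ACLP-NT 49 above them. Usp18 averaged 4.01 ± 1.03 CPM in saline (SD, n = 4), 3.65 ± 0.936 CPM in Aducanumab (SD, n = 4) and 3.25 ± 2.16 CPM in ACLP-NT (SD, n = 5). The Usp18 log2 fold change was -0.30 (SE 0.39, adjusted p = 0.966) in ACLP-NT against saline, -0.14 (SE 0.41) in Aducanumab against saline and -0.17 (SE 0.39) in ACLP-NT against Aducanumab. Parp9, which acts with the ubiquitin ligase DTX3L, was at 7.08, 7.5, 10.4 and 9.72 CPM in saline, 8.48, 7.56, 8.96 and 8.75 CPM in Aducanumab and 8.31, 6.63, 9.08, 5.57 and 7.01 CPM in ACLP-NT. Saline 32 was highest, and ACLP-NT 27, 53 and 55 lay below every library of the other groups. Parp9 averaged 8.67 ± 1.63 CPM in saline (SD, n = 4), 8.44 ± 0.619 CPM in Aducanumab (SD, n = 4) and 7.32 ± 1.39 CPM in ACLP-NT (SD, n = 5). The Parp9 log2 fold change was -0.24 (SE 0.15, adjusted p = 0.89) in ACLP-NT against saline, -0.040 (SE 0.16) in Aducanumab against saline and -0.20 (SE 0.15) in ACLP-NT against Aducanumab. Parp14, an ADP-ribosyltransferase, was at 8.05, 12.4, 12.4 and 14.4 CPM in saline, 10.6, 7.24, 8.46 and 11.8 CPM in Aducanumab and 12.4, 7.37, 13.4, 7.06 and 10.5 CPM in ACLP-NT. Saline 38 was highest, and ACLP-NT 27 and 53 and Aducanumab 50 lay below every saline library. Parp14 averaged 11.8 ± 2.67 CPM in saline (SD, n = 4), 9.52 ± 2.05 CPM in Aducanumab (SD, n = 4) and 10.1 ± 2.87 CPM in ACLP-NT (SD, n = 5). The Parp14 log2 fold change was -0.22 (SE 0.22, adjusted p = 0.948) in ACLP-NT against saline, -0.31 (SE 0.23) in Aducanumab against saline and 0.091 (SE 0.22) in ACLP-NT against Aducanumab. Dtx3l ranged from 6.16 CPM in ACLP-NT 27 to 10.6 CPM in ACLP-NT 49, with a log2 fold change against saline of -0.20 (SE 0.16, adjusted p = 0.941) in ACLP-NT and -0.14 (SE 0.17) in Aducanumab. Parp9 and Dtx3l overlap by 682 bases on opposite strands, so reads there cannot be told apart unless counting used strand.

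Ifitm3, which restricts virus entry at membranes, was at 9.22, 11.1, 11.5 and 11.6 CPM in saline, 8.91, 8.51, 8.37 and 15.6 CPM in Aducanumab and 9.08, 7.01, 13.2, 9.39 and 6.11 CPM in ACLP-NT. Aducanumab 58 was the highest of all libraries, while the other 3 Aducanumab libraries lay below every saline library. ACLP-NT 49 lay above saline, ACLP-NT 53 within it and the other 3 below it. Ifitm3 averaged 10.8 ± 1.1 CPM in saline (SD, n = 4), 10.3 ± 3.51 CPM in Aducanumab (SD, n = 4) and 8.96 ± 2.74 CPM in ACLP-NT (SD, n = 5). The Ifitm3 log2 fold change was -0.28 (SE 0.22, adjusted p = 0.936) in ACLP-NT against saline, -0.068 (SE 0.23) in Aducanumab against saline and -0.21 (SE 0.22) in ACLP-NT against Aducanumab. Bst2, or tetherin, was at 8.79, 11.7, 9.64 and 15.5 CPM in saline, 10.6, 7.79, 11.1 and 13.3 CPM in Aducanumab and 12.1, 5.0, 18.6, 9.19 and 7.1 CPM in ACLP-NT. ACLP-NT 49 was highest, and ACLP-NT 27 and 55 lay below every library of the other groups. Bst2 averaged 11.4 ± 3.0 CPM in saline (SD, n = 4), 10.7 ± 2.27 CPM in Aducanumab (SD, n = 4) and 10.4 ± 5.27 CPM in ACLP-NT (SD, n = 5). The Bst2 log2 fold change was -0.14 (SE 0.31, adjusted p = 0.979) in ACLP-NT against saline, -0.092 (SE 0.32) in Aducanumab against saline and -0.044 (SE 0.31) in ACLP-NT against Aducanumab. Gbp2, a guanylate-binding GTPase that attacks the vacuoles of intracellular microbes, was at 7.13, 14.6, 10.1 and 9.38 CPM in saline, 7.59, 6.82, 7.79 and 12.6 CPM in Aducanumab and 6.64, 5.39, 10.4, 6.65 and 6.07 CPM in ACLP-NT. ACLP-NT 17, 27, 53 and 55 lay below every library of the other groups, while ACLP-NT 49 was exceeded only by saline 19 and Aducanumab 58. Gbp2 averaged 10.3 ± 3.12 CPM in saline (SD, n = 4), 8.7 ± 2.64 CPM in Aducanumab (SD, n = 4) and 7.02 ± 1.93 CPM in ACLP-NT (SD, n = 5). The Gbp2 log2 fold change was -0.55 (SE 0.24, adjusted p = 0.797) in ACLP-NT against saline, -0.24 (SE 0.25) in Aducanumab against saline and -0.31 (SE 0.24) in ACLP-NT against Aducanumab. Gbp3, of the same family, was at 9.54, 13, 12 and 14.9 CPM in saline, 8.3, 8.3, 8.89 and 11.2 CPM in Aducanumab and 12.1, 8.03, 14.9, 8.57 and 8.44 CPM in ACLP-NT. Aducanumab 24, 50 and 56 and ACLP-NT 27, 53 and 55 lay below every saline library. Gbp3 averaged 12.4 ± 2.24 CPM in saline (SD, n = 4), 9.17 ± 1.37 CPM in Aducanumab (SD, n = 4) and 10.4 ± 2.99 CPM in ACLP-NT (SD, n = 5). The Gbp3 log2 fold change was -0.25 (SE 0.19, adjusted p = 0.926) in ACLP-NT against saline, -0.43 (SE 0.20) in Aducanumab against saline and 0.18 (SE 0.19) in ACLP-NT against Aducanumab. Mx1, a dynamin-like antiviral GTPase, was at 1.26, 1.69, 1.6 and 2.24 CPM in saline, 2.41, 0.719, 1.16 and 1.76 CPM in Aducanumab and 1.49, 0.606, 1.67, 0.784 and 1.65 CPM in ACLP-NT. Aducanumab 24 was highest and ACLP-NT 27 lowest, and the groups overlapped. Mx1 averaged 1.7 ± 0.405 CPM in saline (SD, n = 4), 1.51 ± 0.734 CPM in Aducanumab (SD, n = 4) and 1.24 ± 0.505 CPM in ACLP-NT (SD, n = 5). The Mx1 log2 fold change was -0.45 (SE 0.36, adjusted p = 0.934) in ACLP-NT against saline, -0.17 (SE 0.38) in Aducanumab against saline and -0.28 (SE 0.36) in ACLP-NT against Aducanumab.

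Ifi27l2a was at 1.21, 2.48, 1.64 and 3.32 CPM in saline, 1.08, 0.965, 2.04 and 1.15 CPM in Aducanumab and 3.25, 0.311, 2.48, 0.635 and 1.08 CPM in ACLP-NT. Saline 38 and ACLP-NT 17 were highest, ACLP-NT 27 and 53 were lowest, and the range was the widest of the 37 genes. Ifi27l2a averaged 2.17 ± 0.938 CPM in saline (SD, n = 4), 1.31 ± 0.492 CPM in Aducanumab (SD, n = 4) and 1.55 ± 1.26 CPM in ACLP-NT (SD, n = 5). The Ifi27l2a log2 fold change was -0.48 (SE 0.53, adjusted p = 0.958) in ACLP-NT against saline, -0.73 (SE 0.57) in Aducanumab against saline and 0.25 (SE 0.54) in ACLP-NT against Aducanumab. Rtp4, a chaperone of membrane receptors, was at 2.8, 5.27, 4.84 and 6.89 CPM in saline, 4.59, 2.82, 3.86 and 6.41 CPM in Aducanumab and 5.46, 3.8, 6.0, 2.65 and 3.06 CPM in ACLP-NT. Saline 38 was highest, and ACLP-NT 53 alone lay below saline 18, the lowest of its group. Rtp4 averaged 4.95 ± 1.69 CPM in saline (SD, n = 4), 4.42 ± 1.51 CPM in Aducanumab (SD, n = 4) and 4.2 ± 1.47 CPM in ACLP-NT (SD, n = 5). The Rtp4 log2 fold change was -0.24 (SE 0.30, adjusted p = 0.966) in ACLP-NT against saline, -0.17 (SE 0.32) in Aducanumab against saline and -0.074 (SE 0.30) in ACLP-NT against Aducanumab. Samd9l, a cytosolic inhibitor of translation, was at 8.12, 12.4, 8.04 and 11.6 CPM in saline, 10, 7.56, 8.51 and 12.4 CPM in Aducanumab and 9.08, 7.58, 8.56, 8.11 and 7.22 CPM in ACLP-NT. All ACLP-NT libraries lay below saline 19 and 38, with ACLP-NT 55 the lowest. Samd9l averaged 10 ± 2.29 CPM in saline (SD, n = 4), 9.62 ± 2.11 CPM in Aducanumab (SD, n = 4) and 8.11 ± 0.744 CPM in ACLP-NT (SD, n = 5). The Samd9l log2 fold change was -0.31 (SE 0.16, adjusted p = 0.858) in ACLP-NT against saline, -0.062 (SE 0.17) in Aducanumab against saline and -0.25 (SE 0.16) in ACLP-NT against Aducanumab. Sp100, a component of nuclear bodies, was at 6.04, 8.58, 8.52 and 8.72 CPM in saline, 7.01, 7.37, 6.22 and 9.0 CPM in Aducanumab and 8.39, 4.46, 7.49, 5.38 and 5.42 CPM in ACLP-NT. ACLP-NT 27, 53 and 55 lay below every library of the other groups. Sp100 averaged 7.96 ± 1.28 CPM in saline (SD, n = 4), 7.4 ± 1.17 CPM in Aducanumab (SD, n = 4) and 6.23 ± 1.64 CPM in ACLP-NT (SD, n = 5). The Sp100 log2 fold change was -0.36 (SE 0.18, adjusted p = 0.848) in ACLP-NT against saline, -0.11 (SE 0.19) in Aducanumab against saline and -0.25 (SE 0.18) in ACLP-NT against Aducanumab. Ifi44, a cytosolic protein of the response, was at 2.39, 2.71, 2.27 and 1.99 CPM in saline, 1.24, 1.3, 1.76 and 2.28 CPM in Aducanumab and 2.25, 0.704, 2.96, 1.33 and 2.02 CPM in ACLP-NT. Aducanumab 24, 50 and 56 and ACLP-NT 27 and 53 lay below every saline library, and ACLP-NT 49 was highest. Ifi44 averaged 2.34 ± 0.296 CPM in saline (SD, n = 4), 1.64 ± 0.485 CPM in Aducanumab (SD, n = 4) and 1.85 ± 0.865 CPM in ACLP-NT (SD, n = 5). The Ifi44 log2 fold change was -0.34 (SE 0.32, adjusted p = 0.948) in ACLP-NT against saline, -0.51 (SE 0.34) in Aducanumab against saline and 0.17 (SE 0.33) in ACLP-NT against Aducanumab.

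Of the other intracellular effectors, 4 are given by their range and fold change against saline. Xaf1, a protein linked to cell death, ranged from 4.0 CPM in ACLP-NT 27 to 10.7 CPM in ACLP-NT 49 and had log2 fold changes of -0.038 (SE 0.21, adjusted p = 0.992) in ACLP-NT and -0.18 (SE 0.23) in Aducanumab. For Trim30a, a TRIM family protein, the range was 6.11 CPM in ACLP-NT 27 to 13.4 CPM in saline 38 and the fold changes were -0.27 (SE 0.22, adjusted p = 0.934) in ACLP-NT and -0.18 (SE 0.23) in Aducanumab. Ifi35 spanned 2.77 CPM in Aducanumab 50 to 6.94 CPM in ACLP-NT 49, with -0.13 (SE 0.23, adjusted p = 0.977) in ACLP-NT and -0.22 (SE 0.24) in Aducanumab. Trim30a tracked the summary score more closely than any other of the 37 genes, as given below, and its longest open reading frame shares 90.0% of its letters with Trim30d. Rsad2, which encodes viperin, spanned 1.75 CPM in Aducanumab 50 to 3.94 CPM in Aducanumab 24, with -0.12 (SE 0.23, adjusted p = 0.977) in ACLP-NT and 0.032 (SE 0.25) in Aducanumab. Among secreted products Cxcl10, a chemokine that attracts T cells, was at 2.39, 2.84, 5.49 and 5.43 CPM in saline, 4.08, 2.63, 2.12 and 3.64 CPM in Aducanumab and 3.39, 1.13, 5.45, 1.36 and 3.16 CPM in ACLP-NT. Saline 32 and 38 and ACLP-NT 49 were highest at similar levels, and ACLP-NT 27 and 53 lay below every library of the other groups. Cxcl10 averaged 4.04 ± 1.65 CPM in saline (SD, n = 4), 3.12 ± 0.902 CPM in Aducanumab (SD, n = 4) and 2.9 ± 1.75 CPM in ACLP-NT (SD, n = 5). The Cxcl10 log2 fold change was -0.48 (SE 0.41, adjusted p = 0.944) in ACLP-NT against saline, -0.38 (SE 0.44) in Aducanumab against saline and -0.10 (SE 0.41) in ACLP-NT against Aducanumab. Cxcl10 overlaps Art3 by 2245 bases and Rtp4 overlaps Masp1 by 525 bases, both on the opposite strand in GENCODE vM21. Rtp4 also shares 39791 bases with Gm45338 on the same strand, a gene that was tested and averaged 0.819 CPM. Lgals3bp ranged from 37.4 CPM in ACLP-NT 27 to 107 CPM in ACLP-NT 49 and had log2 fold changes against saline of -0.41 (SE 0.27, adjusted p = 0.904) in ACLP-NT and -0.36 (SE 0.28) in Aducanumab.

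**Figure D3:**
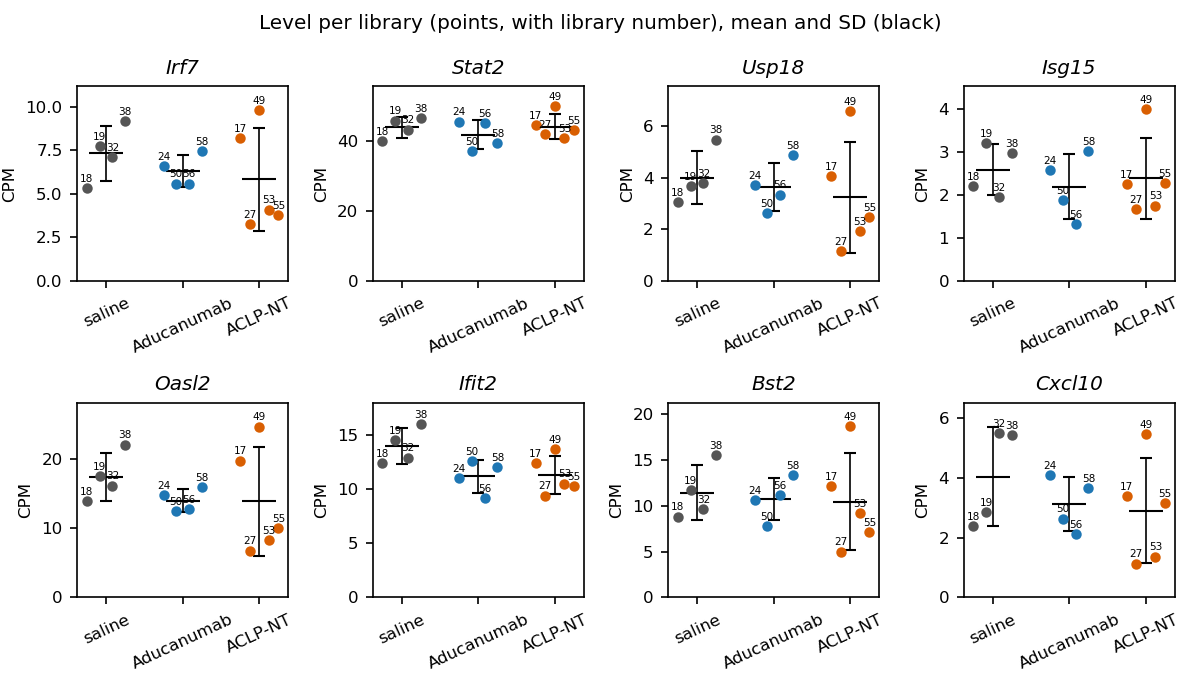
CPM of 8 of the genes in each library (points, with library number), with the mean and SD of each group in black; each vertical axis starts at 0. ACLP-NT 49 is the highest point for Irf7, Stat2, Usp18, Isg15, Oasl2 and Bst2, and ACLP-NT 27 is the lowest for Irf7, Usp18, Oasl2, Bst2 and Cxcl10.

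The comparison of ACLP-NT with saline asks how the response genes stood after ACLP-NT treatment. Fitted values were lower in ACLP-NT for 36 of the 37 genes, beside 50.6% of all 22065 genes, and Stat2 was the exception at 0.0052. The median log2 fold change was -0.27, against -0.0015 over all genes, with a median SE of 0.24, and values reached -0.59 for Oas1a. None of the 37 genes, and 0.0% of all genes, passed the edgeR adjusted threshold, and the lowest adjusted p among the 37 was 0.789, that of Ifi204. At an unadjusted p below 0.05 there were 3, Ifit2, Ifi204 and Gbp2, all lower, or 8.11% of the 37 beside 5.88% of all genes. DESeq2 called 0 of the 37 after adjustment (0.0408% of all genes) and limma on log2(FPKM + 1) 0 (0.0% of all genes), and each gave the same 3 genes at an unadjusted p below 0.05, beside 6.44% and 6.58% of all genes. In 0 of the 37 did the groups fail to overlap, beside 1.33% of all genes that lay wholly lower. No single gene thus differed beyond the spread between libraries by the adjusted test. The median was -0.15 without ACLP-NT 27 and -0.17 without saline 38, with 32 and 31 of the 37 genes lower. It was -0.41 without ACLP-NT 49 and -0.36 without saline 18. At an unadjusted edgeR p below 0.05 the count was 13 without ACLP-NT 49, beside 1492 of all 22065 genes, and 6 without saline 18, beside 1142. It was 1 without saline 38 or ACLP-NT 55, beside 1518 and 1123 of all genes. That count was 0 without saline 19, ACLP-NT 27 or ACLP-NT 53, beside 987, 1319 and 969. ACLP-NT 49 was the highest library by the score of these genes, so leaving it out lowers the ACLP-NT values by construction.

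**Figure D4:**
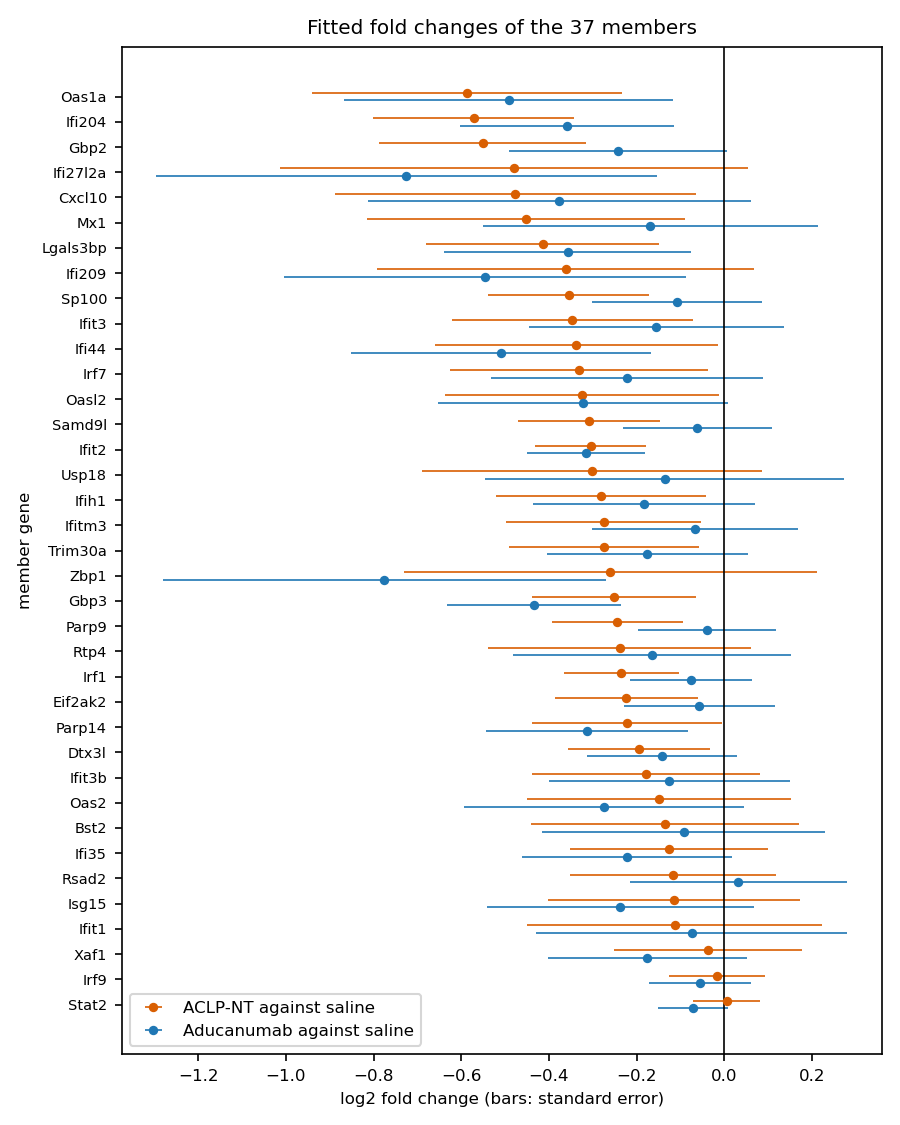
Log2 fold change of each of the 37 genes (points, bars show the standard error) in ACLP-NT (orange) and Aducanumab (blue) against the same 4 saline libraries, ordered by the ACLP-NT value. The points lie to the left of 0 apart from Stat2 in ACLP-NT and Rsad2 in Aducanumab, and the median SE, 0.24 and 0.25, is close to the median shift of -0.27 and -0.18.

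Aducanumab was compared with the same 4 saline libraries, so the values of the pair of comparisons are not independent. Fitted values were lower for 36 of the 37 genes, beside 48.7% of all genes, with Rsad2 the exception at 0.032. The median log2 fold change was -0.18, against 0.0036 over all genes, with a median SE of 0.25, and the lowest value was -0.78 for Zbp1. None of the 37 genes and 0.0% of all genes passed the edgeR adjusted threshold, with a lowest adjusted p of 0.9997 among the 37. At an unadjusted p below 0.05 edgeR gave Ifit2 and Gbp3, which is 2 of the 37 (5.41%) beside 4.68% of all genes, DESeq2 gave the same 2 (5.01% of all genes) and limma Ifit2 alone (5.23% of all genes). After adjustment DESeq2 called 0 of the 37, beside 0.0816% of all genes, and limma 0, beside 0.0%. The groups overlapped in all 37, beside 1.41% of all genes that lay wholly lower. The median was -0.087 without saline 38, -0.30 without saline 18, -0.11 without Aducanumab 50 and -0.31 without Aducanumab 58. The count of genes with lower values was 27 without saline 38 and 26 without Aducanumab 50.

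Between the treatments, values were lower in ACLP-NT for 24 of the 37 genes, beside 52.4% of all genes, and the median log2 fold change was -0.057 with a median SE of 0.24. The values ran from -0.31 for Gbp2 to 0.52 for Zbp1. The edgeR adjusted threshold was passed by none of the 37 and by 0.0% of all genes, and at an unadjusted p below 0.05 there were 0 of the 37 beside 3.24% of all genes. DESeq2 and limma also gave 0 of the 37, after adjustment (0.0136% and 0.0% of all genes) and at an unadjusted p below 0.05 (3.43% and 3.83%). No gene of the 37 had groups that did not overlap, beside 0.644% of all genes wholly lower. The direction of the median was not stable: it was 0.0061 without Aducanumab 24, 0.061 without Aducanumab 58, 0.070 without ACLP-NT 27, 0.037 without ACLP-NT 53 and 0.011 without ACLP-NT 55, and -0.26 without ACLP-NT 49, -0.17 without Aducanumab 50, -0.16 without ACLP-NT 17 and -0.11 without Aducanumab 56. By promoter, the median log2 fold change against the shared saline libraries was -0.21 in ACLP-NT and -0.17 in Aducanumab for the 12 genes with the GAAA core, and -0.29 and -0.18 for the 16 matched genes without it.

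The rest of the pathway was read from lists drawn up by function. Of 13 interferon genes, 6 were listed and 0 passed the count filter: Ifnb1 had 0 to 4 counts in a library, Ifng 0 to 8 and Ifnz 0 to 2, too few for any comparison. Genes of the receptors and their kinases were tested, and none of those named here passed the adjusted threshold. Ifnar1, a receptor subunit, was at -0.087 (SE 0.045, adjusted p = 0.858) on the log2 scale in ACLP-NT and -0.17 (SE 0.048, adjusted p = 0.938) in Aducanumab against saline. Ifnar2 was at -0.13 (SE 0.11, adjusted p = 0.935) in ACLP-NT and -0.090 (SE 0.11, adjusted p = 1) in Aducanumab, and Ifngr1, a receptor of interferon gamma, at -0.22 (SE 0.11, adjusted p = 0.848) in ACLP-NT and -0.092 (SE 0.12, adjusted p = 1) in Aducanumab. The kinases were near 0, Jak1 at 0.032 (SE 0.046, adjusted p = 0.968) in ACLP-NT and 0.041 (SE 0.048, adjusted p = 1) in Aducanumab and Tyk2 at -0.073 (SE 0.057, adjusted p = 0.933) in ACLP-NT and -0.034 (SE 0.060, adjusted p = 1) in Aducanumab.

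Genes that sense nucleic acid or otherwise set or restrain the induction of interferon numbered 19, all tested, and 0 passed, with 16 lower in ACLP-NT and 12 in Aducanumab. The DNA sensor Cgas was at -0.090 (SE 0.21, adjusted p = 0.98) in ACLP-NT and -0.25 (SE 0.22, adjusted p = 1) in Aducanumab, and its adaptor Sting1 at -0.28 (SE 0.17, adjusted p = 0.886) in ACLP-NT and -0.25 (SE 0.18, adjusted p = 1) in Aducanumab. The transcription factor Irf3 was at 0.13 (SE 0.098, adjusted p = 0.926) in ACLP-NT and 0.048 (SE 0.10, adjusted p = 1) in Aducanumab. The smallest p-values were those of Irf5, a factor of myeloid cells, at -0.42 (SE 0.12, adjusted p = 0.722) in ACLP-NT and -0.30 (SE 0.13, adjusted p = 1) in Aducanumab, and Rnaseh2b, a subunit of the enzyme that removes RNA from DNA and so restrains induction, at -0.27 (SE 0.099, adjusted p = 0.772) in ACLP-NT and -0.27 (SE 0.10, adjusted p = 1) in Aducanumab. Of 8 negative regulators, 4 were lower in each comparison with saline, and 0 passed. Ptpn6, a phosphatase of blood cells and microglia, was at -0.48 (SE 0.17, adjusted p = 0.752) in ACLP-NT and -0.27 (SE 0.18, adjusted p = 1) in Aducanumab, Pias1 at 0.066 (SE 0.040, adjusted p = 0.89) in ACLP-NT and -0.030 (SE 0.042, adjusted p = 1) in Aducanumab, Socs1 at 0.076 (SE 0.32, adjusted p = 0.988) in ACLP-NT and 0.38 (SE 0.33, adjusted p = 1) in Aducanumab and Irf2 at 0.092 (SE 0.072, adjusted p = 0.934) in ACLP-NT and 0.062 (SE 0.076, adjusted p = 1) in Aducanumab. Of 59 other interferon-stimulated genes 0 passed, while 49 were lower in ACLP-NT and 45 in Aducanumab, with medians of -0.27 and -0.17. Shisa5 was at -0.23 (SE 0.069, adjusted p = 0.722) in ACLP-NT and -0.19 (SE 0.073, adjusted p = 1) in Aducanumab, Gbp5 at -0.46 (SE 0.18, adjusted p = 0.788) in ACLP-NT and -0.25 (SE 0.19, adjusted p = 1) in Aducanumab and Iigp1 at -0.45 (SE 0.19, adjusted p = 0.802) in ACLP-NT and -0.57 (SE 0.21, adjusted p = 1) in Aducanumab. Between the treatments the smallest p-values of the lists belonged to Pias1 at 0.096 (SE 0.040, adjusted p = 1), Trim30d at -0.60 (SE 0.28, adjusted p = 1), Ly6e at -0.12 (SE 0.061, adjusted p = 1), Ifnar1 at 0.078 (SE 0.046, adjusted p = 1), Tbk1 at 0.076 (SE 0.052, adjusted p = 1), Ticam1 at -0.17 (SE 0.13, adjusted p = 1), Ptpn6 at -0.21 (SE 0.17, adjusted p = 1) and Ifngr1 at -0.13 (SE 0.11, adjusted p = 1).

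The genes moved together from library to library. Over all 666 pairs, the Pearson r of log2 CPM across the 13 libraries, after centring on group means, had a median of 0.69, and 665 were above 0. As all points share the same libraries and scaling, this is a description. The highest pairs were Irf7 with Oasl2 (0.98), Ifit3 with Ifit3b (0.96), Oasl2 with Usp18 (0.96), Usp18 with Xaf1 (0.95) and Trim30a with Gbp3 (0.95). The lowest 5 all held Irf1: with Ifit2 (-0.024), Ifit3b (0.066), Ifit3 (0.077), Ifi209 (0.080) and Isg15 (0.12). Against the score of the other 36 genes, r was above 0.8 for 24 genes, highest for Trim30a (0.98) and lowest for Irf1 (0.41), with a median of 0.82. Over all genes tested the median r with the score was 0.00033.

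Outside the 37, genes among the 10 most like the score by this r over 13 libraries were Unc93b1 (0.96), a chaperone of nucleic acid sensing Toll-like receptors, Rnf213 (0.96), Ccl12 (0.96), Gvin1 (0.95), Gvin2 (0.94), Hk3 (0.93), Fyb1 (0.92), Ptpn6 (0.92) and Inpp5d (0.92). Ccl12 is a chemokine, and Hk3, Fyb1, Ptpn6 and Inpp5d are genes of blood and microglial cells.

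Microglial markers varied with the response genes. In bulk tissue, fewer cells of a type and less RNA per cell cannot be told apart. Of 15 microglia markers 14 were tested, and their summed level in saline was 1643 to 2023 CPM, that in Aducanumab 1339 to 1729 and that in ACLP-NT 1078 to 1690, with none at 0. All 14 were lower in each comparison with saline, by medians of -0.36 in ACLP-NT and -0.26 in Aducanumab. At an unadjusted edgeR p below 0.05 there were 12 of the 14 in ACLP-NT, beside 5.88% of all genes. In Aducanumab there were 3, beside 4.68% of all genes. After adjustment 0 of the 14 markers passed. Their mean centred log2 CPM had r = 0.85 with the response score within groups over 13 libraries that share the same RNA, and 0.76 without ACLP-NT 27 and 53, the farthest on the marker axis. For 12 markers of plaque-associated microglia the saline sum was 3215 to 4108 CPM, the Aducanumab sum 2895 to 4039 and the ACLP-NT sum 2516 to 3595. Values were lower for 12 in ACLP-NT and 11 in Aducanumab, and r was 0.85. The exception was Spp1, at 0.88 (SE 0.33, adjusted p = 0.9997 by edgeR) in Aducanumab against saline, with 48 CPM in Aducanumab 58. Trem2 and Tyrobp are in both lists, so the 2 values of r are not independent. With the microglia marker score added to the fit as a covariate, an alternative chosen after seeing the data, the median log2 fold change of the 37 genes was 0.23 with 6 lower in ACLP-NT against saline, 0.15 with 9 lower in Aducanumab against saline, and 0.058 with 12 lower between the treatments. The marker score itself was lower in both treated groups, so its part and that of treatment cannot be told apart.

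**Figure D5:**
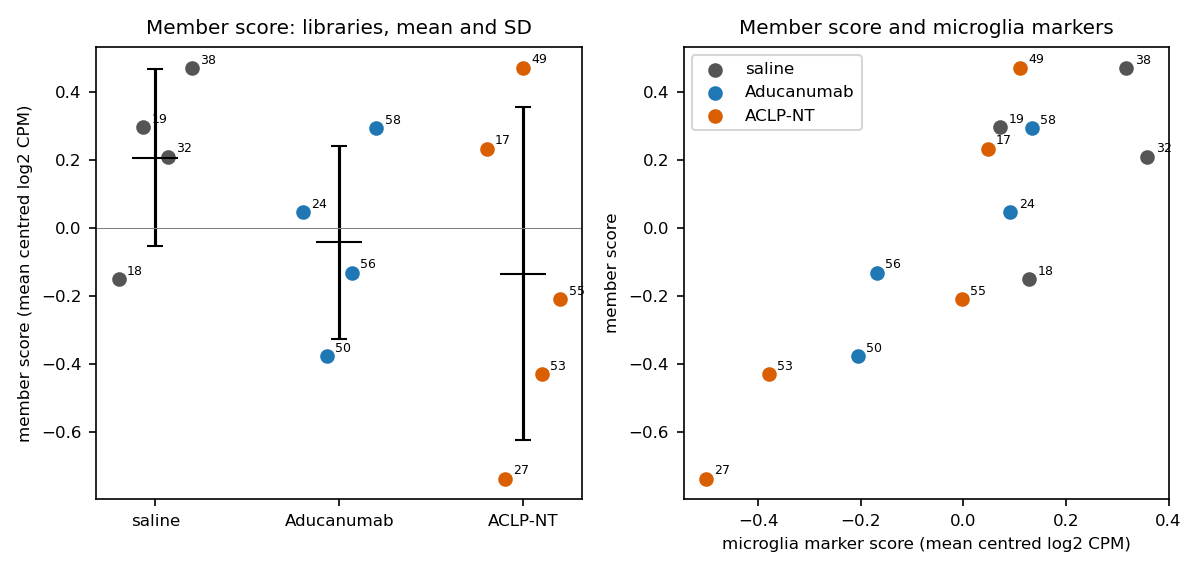
Left, the score of the 37 response genes (mean centred log2 CPM) in each library by group, with the group mean and SD in black. Right, the same score against the score of 14 microglia markers; ACLP-NT 27 and 53 are low on both axes and saline 38 is high on both.

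Other cell types were read from marker lists as well. Hippocampal field markers, which check the labelled tissue, summed to 845 to 1069 CPM in saline, with Aducanumab at 925 to 1099 and ACLP-NT at 979 to 1163. Of these 11 markers, 10 had higher values in ACLP-NT than in saline (median log2 fold change 0.23) and 9 in Aducanumab (median 0.10). At an unadjusted edgeR p below 0.05 there were 5 in ACLP-NT, beside 5.88% of all genes, and 3 in Aducanumab, beside 4.68%. After adjustment 0 of the 11 passed. Their r with the response score within groups over the 13 libraries was -0.35, and -0.0049 without ACLP-NT 49 and saline 19, the farthest on the marker axis. Neuronal markers summed to 7665 to 9002 CPM in saline, with Aducanumab at 7619 to 9509 and ACLP-NT at 7908 to 9094, with 1 of 8 lower in ACLP-NT and 3 in Aducanumab, and r was -0.54, or -0.40 without Aducanumab 58 and saline 38. Astrocyte markers summed to 5887 to 6538 CPM in saline, with Aducanumab at 5383 to 6170 and ACLP-NT at 5380 to 5795. All 8 were lower in ACLP-NT than in saline (median -0.030) and 4 in Aducanumab (median -0.013), 0 passed, and r was 0.57, or 0.74 without Aducanumab 56 and 58. Markers of choroid plexus, the epithelium that makes cerebrospinal fluid, in saline ran from 257 to 7772 CPM, under Aducanumab from 296 to 8091 and under ACLP-NT from 296 to 7755, with 0 of 12 lower in either treated group, and r with the response score was 0.46. With the choroid plexus score as a covariate the median log2 fold change of the 37 genes was -0.41 in ACLP-NT and -0.32 in Aducanumab against saline. In that fit 10 and 4 of the 37 had an unadjusted edgeR p below 0.05, beside 1540 and 1013 of all 22065 genes. After adjustment 0 of the 37 passed. Markers of T and natural killer cells, 6 of 11 tested, summed to at most 2.72 CPM, and those of monocytes and neutrophils, 2 of 10 tested, to at most 2.37 CPM. Aducanumab 58 was the highest library by the marker scores of border macrophages (1.3), meningeal fibroblasts (1.38), blood (1.12), pericytes and smooth muscle (0.64) and endothelium (0.52). Within groups the r of these lists with the response score was 0.39, 0.32, -0.083, 0.45 and 0.21. It was 0.22 for B and plasma cells and 0.081 for oligodendrocytes. The part of these cell types in the values of the response genes was not tested.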

How the data were processed

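Bulk hippocampal RNA was compared in 13 libraries of 3 treatment groups, grouped by GEO's labels. Whole-number raw counts per gene were deposited by the authors without normalization, per the file headers. The deposited FPKM values are the authors' counts scaled to gene length and library total, per the file headers. The submitters' processing notes list edgeR (unversioned), StringTie 1.3.4d, HISAT2 2.0.4 and cutadapt 1.9. Genome build, counter and strand setting: not given in the sources used here.

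From the counts, 22065 genes kept by filterByExpr were scaled by TMM and compared with edgeR 4.0.16 (R 4.3.3), with the quasi-likelihood test, two-sided, on 3 groups in 1 fit, and Benjamini-Hochberg adjustment over all genes tested (threshold 0.05). Each SE was derived from the test as |log2 fold change| over the root of F. The score and spread use log2 CPM with a prior count of 2. DESeq2 1.42.0 and limma 3.58.1 on log2(FPKM + 1) were alternatives, beside other filters, scalings, covariates and each library left out. The method was tested on simulated counts.

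The 37 genes, the lists and the named genes were chosen with earlier results of these data known. Given in full were 14 set genes and the 6 with the smallest p in each comparison; pathway genes were a set group and the 2 with the smallest p of each list. Promoters, near copies and overlaps used RefSeq GRCm38.p6 and GENCODE vM21 (GRCm38), apart from the table's own coordinates. Depth, 53642019 to 69734713 counts per library, was summed from the deposited counts. No p-value was computed for the list as a whole. One pathway gene that the rule names is not reported here.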

Additional observations from a re-analysis of the deposited data

Results flagged for a closer look

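Within a group, a library was singled out where its gap to the nearest other library was a large share of the group's range (above 0.829 of it for 4 libraries and 0.710 for 5), a rule that chance meets in about 1 group in 20. Of 114 groups, 9 (7.89%) met it. Low libraries were Ifi204 at 2.31 CPM and Ifi35 at 2.77 CPM in Aducanumab 50, and Oas1a at 2.76 CPM and Sp100 at 6.04 CPM in saline 18. High libraries were Oas2 at 4.57 CPM, Ifitm3 at 15.6 CPM and Gbp2 at 12.6 CPM in Aducanumab 58, and Isg15 at 4.0 CPM and Gbp2 at 10.4 CPM in ACLP-NT 49. Each of these 4 libraries is the lowest or highest of its group by the score over the 37 genes.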

How the results depend on the processing

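No paired analysis was possible because the 3 groups share no replicate numbers. Of 1490 recomputed values for the 60 results on named genes, 91 reversed sign and 0 passed the adjusted threshold. At least 1 reversal fell in 42 of the 60 results. Results that never reversed were 6 of 20 in ACLP-NT against saline, 5 of 20 in Aducanumab against saline and 7 of 20 between the treatments. The microglia covariate and the fit without Aducanumab 50 and 58 were chosen after seeing the data. With the microglia score as covariate the medians were 0.23, 0.15 and 0.058 and the genes lower 6, 9 and 12 in ACLP-NT against saline, Aducanumab against saline and ACLP-NT against Aducanumab. In ACLP-NT against saline it gave Bst2 0.41, Cxcl10 0.57, Ifi27l2a 0.28, Ifit3 0.24, Ifit3b 0.33, Ifitm3 0.049, Irf7 0.23, Irf9 0.18, Isg15 0.34, Mx1 0.36, Oasl2 0.30, Rtp4 0.28 and Usp18 0.51. Aducanumab against saline gave Bst2 0.34, Cxcl10 0.51, Ifi27l2a 0.13, Ifit3 0.31, Ifit3b 0.29, Ifitm3 0.15, Irf7 0.23, Irf9 0.085, Isg15 0.069, Mx1 0.39, Oasl2 0.21, Parp14 0.054, Rtp4 0.18 and Usp18 0.56. ACLP-NT against Aducanumab gave Bst2 0.072, Cxcl10 0.058, Ifit3b 0.045, Oasl2 0.085 and Rtp4 0.096. DESeq2 called 9, 18 and 3 of all genes in these comparisons. By edgeR, 1 gene was called without saline 32 in both comparisons with saline, and 1 without ACLP-NT 49 in both comparisons with Aducanumab. No call was among the 37. On log2(FPKM + 1) the range of the score was 0.711 and the medians against saline were -0.17 and -0.11. With the choroid plexus score as covariate Stat2 was at -0.035 in ACLP-NT against saline. Without Aducanumab 50 and 58, Mx1 was at 0.068 and Stat2 at 0.045 in Aducanumab against saline, and Ifi27l2a at -0.0045, Ifitm3 at 0.054, Oasl2 at 0.025 and Stat2 at -0.038 between the treatments. There, Ifi27l2a was also at -0.017 and -0.14 by limma on log2(FPKM + 1) and log2(FPKM + 0.1), and Oasl2 at 0.0025 with no filter. Leaving out each library in turn, the medians ran from -0.41 to -0.15, -0.31 to -0.087 and -0.26 to 0.070, the genes lower from 31 to 37, 26 to 37 and 12 to 31, the genes called from 0 to 1 in each, the median SD from 0.38 to 0.44 and the range of the score from 0.90 to 1.22. Signs changed for some named genes, in ACLP-NT against saline Bst2 from -0.45 to 0.050, Irf9 from -0.083 to 0.051, Isg15 from -0.37 to 0.0041 and Stat2 from -0.040 to 0.036; in Aducanumab against saline Bst2 from -0.21 to 0.093, Ifit3 from -0.29 to 0.017, Ifit3b from -0.27 to 0.044, Ifitm3 from -0.33 to 0.022, Irf9 from -0.13 to 0.030, Mx1 from -0.49 to 0.063, Rtp4 from -0.40 to 0.036 and Usp18 from -0.31 to 0.051; in ACLP-NT against Aducanumab Bst2 from -0.36 to 0.13, Cxcl10 from -0.45 to 0.10, Ifi27l2a from -0.21 to 0.54, Ifit3b from -0.28 to 0.098, Ifitm3 from -0.39 to 0.061, Irf7 from -0.38 to 0.041, Irf9 from -0.047 to 0.11, Isg15 from -0.14 to 0.32, Mx1 from -0.51 to 0.036, Oasl2 from -0.31 to 0.17, Rtp4 from -0.24 to 0.16 and Usp18 from -0.59 to 0.050. The cause of these changes was not tested, beyond what leaving out a library shows by its construction. Counting error is small beside the spread between libraries, and the number of libraries limits what can be detected.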
